A study of Mus musculus with 12 samples.

Results

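The 9 genes described here encode proteins that carry, bind, make and break down vitamin A and its active form, retinoic acid. They are Rbp4, Stra6, Crabp1, Crabp2, Dhrs9, Aldh1a1, Aldh1a2, Aldh1a3 and Cyp26b1, taken by mouse symbol from the 55401 genes of the deposited table. All 9 were found there. They were chosen with their differences between genotypes in these same libraries in view, so those differences are given as descriptions. Counts of genes called on them stand beside the share over all genes, and nothing is read from them. 8 of the 9 had a mean of at least 1 FPKM (fragments per kilobase, also scaled for the size of the library) over the 12 libraries and entered the fit across 14313 genes. Dhrs9, with a mean of 0.696 FPKM, did not.

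The RNA came from mouse dermis, the layer of connective tissue under the epidermis. All mice were C57BL/6 animals aged 6 weeks, either wild type (WT) or Cthrc1-/-, that is, without Cthrc1, which encodes a secreted collagen triple helix repeat protein. Each genotype was sampled on day 0 and on day 7 of an experiment with paired wounds of matched size, giving 4 groups of 3 biological replicates. The labels name no other allele or agent, and they do not say in which cells Cthrc1 was lost, whether animals were pooled or which wound of a pair was taken.

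Retinol travels in blood bound to Rbp4, and the membrane protein Stra6 takes it up from that carrier. Inside the cell, dehydrogenases such as Dhrs9 oxidise retinol to retinal, and the Aldh1a enzymes oxidise retinal to retinoic acid, the ligand of the nuclear receptors RAR. Crabp1 and Crabp2 bind retinoic acid in the cytosol, and Cyp26b1 hydroxylates it for removal. In skin, retinoic acid is known for its effects on keratinocyte differentiation, sebaceous glands and the growth of hair follicles.

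RefSeq (GRCm38.p6) gave windows of 250 bases before annotated start sites for 7 of the 9 genes, 12 windows in all, since some genes have several starts. A window each of Stra6, Crabp1 and Aldh1a1 is shown because these genes were the receptor, the most abundant binding protein and the dehydrogenase with a called drop between days. Capitals mark the GC box GGGCGG on either strand.
Stra6, chr9:58128838-58129087, plus strand: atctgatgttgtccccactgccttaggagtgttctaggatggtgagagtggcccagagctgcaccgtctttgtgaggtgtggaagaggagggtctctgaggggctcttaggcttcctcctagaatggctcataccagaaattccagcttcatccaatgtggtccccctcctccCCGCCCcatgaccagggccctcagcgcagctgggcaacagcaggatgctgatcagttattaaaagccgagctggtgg
Crabp1, chr9:54764498-54764747, plus strand: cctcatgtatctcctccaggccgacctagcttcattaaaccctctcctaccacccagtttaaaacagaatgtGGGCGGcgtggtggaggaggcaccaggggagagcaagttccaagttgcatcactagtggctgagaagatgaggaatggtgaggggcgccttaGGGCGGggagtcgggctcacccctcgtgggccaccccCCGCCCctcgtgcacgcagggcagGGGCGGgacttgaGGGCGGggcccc
Aldh1a1, chr19:20601718-20601967, plus strand: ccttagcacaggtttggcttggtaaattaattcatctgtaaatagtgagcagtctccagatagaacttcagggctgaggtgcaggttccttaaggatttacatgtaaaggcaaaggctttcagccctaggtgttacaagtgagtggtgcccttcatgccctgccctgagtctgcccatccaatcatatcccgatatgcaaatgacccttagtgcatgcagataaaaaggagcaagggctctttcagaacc
The Crabp1 window held 5 GC boxes, the Stra6 window 1 and the Aldh1a1 window 0. GC boxes were found in 7 of the 12 windows and in 32.7% of the 32851 RefSeq windows of this length. The TATA box TATAAA was found in 3 of the 12 windows and in 12.4% of all windows, again on both strands.

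Half-sites to which retinoic acid receptors bind were searched on both strands. The common form, AGGTCA, was in 1 of the 12 windows, that of Dhrs9, and in 14% of all windows. The variant form AGTTCA was in 0 of the 12 and in 11.8% of all windows. Direct repeats of these half-sites spaced by 5 bases, searched as each of the 4 combinations, were in 0 of the 12 windows and in at most 0.0213% of all windows. A lack of matches says only that these letters are not in these windows.

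The libraries held between 48329668 and 76938132 counts each. Cthrc1 itself had counts of 2508, 2972 and 1813 in WT on day 0 and of 11678, 11608 and 8276 in WT on day 7, against at most 15 in any Cthrc1-/- library, so the target gene followed the genotype labels. Markers of dermal fibroblasts, the labelled tissue, were present in every library, with summed levels from 337 to 6441 FPKM. Markers of interfollicular epidermis were also present in every library, at 2247 to 9412 FPKM, so RNA of epidermal type was present too. Hair follicle keratinocyte markers, 15 genes such as the inner root sheath keratins Krt25 and Krt71, stood apart between groups. Their sums were 11.2, 12.7 and 13.8 FPKM in WT day 0 replicates 1 to 3 and 267, 5768 and 13942 FPKM in Cthrc1-/- day 0. They were 1759, 4433 and 4024 FPKM in WT day 7 and 3992, 540.3 and 5966 FPKM in Cthrc1-/- day 7. The Cthrc1-/- day 0 libraries thus differed widely among themselves. Replicate 3 of that group had the highest hair follicle sum and the lowest fibroblast sum of the 12 libraries. WT day 7 replicate 1 stood apart by its neutrophil markers, which summed to 4875 FPKM against 735 and 36.9 FPKM in the other WT day 7 libraries. In these bulk samples, fewer cells of a type and less RNA per cell cannot be told apart. Levels below are FPKM in replicates 1, 2 and 3, and log2 changes are from edgeR counts with their standard errors (SE).

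**Figure D1:**
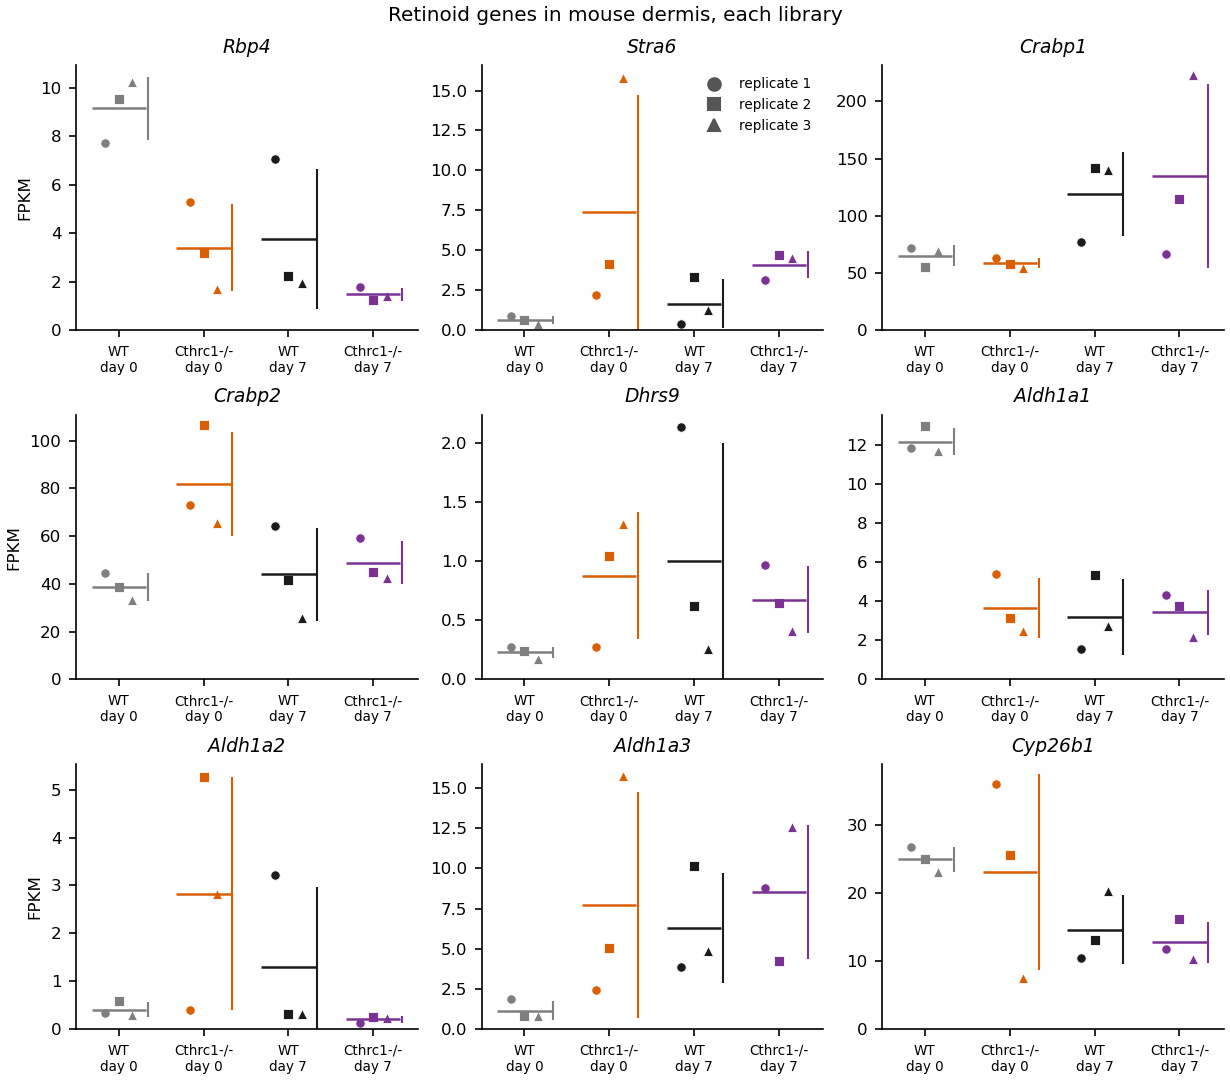
Level of each of the 9 genes in FPKM (vertical axis, linear, from 0) in each of the 12 libraries, by genotype and day. Symbols are replicates, horizontal lines are group means and vertical lines are 1 SD either side of the mean (n = 3), drawn only above 0. Aldh1a1 in WT on day 0 sits between 11.7 and 12.9 FPKM, above the other 9 libraries, while Stra6 and Aldh1a3 are spread most widely in Cthrc1-/- on day 0.

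Rbp4 (ENSMUSG00000024990, chr19:38116629-38125281, minus strand, GRCm38) encodes the plasma carrier of retinol, made mainly in liver and also in fat. Its levels were 7.70, 9.53 and 10.2 FPKM in WT on day 0 and 5.29, 3.19 and 1.71 FPKM in Cthrc1-/- on day 0. On day 7 they were 7.07, 2.24 and 1.95 FPKM in WT and 1.75, 1.25 and 1.39 FPKM in Cthrc1-/-. The Cthrc1-/- libraries lay below all WT libraries of the same day on both days, though on day 7 WT replicates 2 and 3 were close to them. The log2 difference between genotypes was -1.51 ± 0.572 on day 0 and -1.48 ± 0.575 on day 7. Without WT day 7 replicate 1, the library with the high neutrophil sum, the day 7 value was -0.52.

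In WT, every day 7 library was below every day 0 library, with a log2 change of -1.41 ± 0.570, which did not pass (edgeR adjusted p = 0.120). Without WT day 7 replicate 1 it was -2.27 and passed (edgeR adjusted p = 0.0181, range over the alternatives 0.0181 to 0.967). In Cthrc1-/- the change over the days was -1.39 ± 0.574, with overlapping groups (edgeR adjusted p = 0.238). It was -0.88 without Cthrc1-/- day 0 replicate 1. Transthyretin (Ttr), the partner that Rbp4 travels with in plasma, had counts of 502, 287 and 379 in WT and 241, 317 and 231 in Cthrc1-/- on day 0. On day 7 it had 0 counts in 5 of the 6 libraries and 4 in Cthrc1-/- replicate 3. Set against a floor of 3 counts in each library, the WT day 7 level of Ttr was lower by 150-fold (edgeR adjusted p = 0.00380). A low count here is not 1 fragment, so that fold is not a strict lower bound. The summed level of 9 liver-type secreted protein genes moved along with Ttr, from 27.9 to 78.4 FPKM in WT on day 0 to 0.890 to 2.24 FPKM on day 7. Albumin (Alb) and the apolipoprotein Apoa1 are on that list, and the part of the list in the levels of Ttr and Rbp4 was not tested.

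Stra6 (ENSMUSG00000032327, chr9:58063788-58153996, plus strand) encodes the membrane receptor for the retinol carrier. It was at 0.850, 0.593 and 0.366 FPKM in WT and at 2.21, 4.13 and 15.8 FPKM in Cthrc1-/- on day 0. By day 7 it stood at 0.352, 3.34 and 1.24 FPKM in WT and at 3.12, 4.67 and 4.49 FPKM in Cthrc1-/-. On day 0 all Cthrc1-/- libraries were above all WT libraries, with replicate 3 far above the rest, and on day 7 WT replicate 2 overlapped the Cthrc1-/- group. The ratio of group means on day 0 was 12.2, the largest of the 9 genes. The log2 difference was 3.44 ± 0.846 on day 0 and 2.33 without Cthrc1-/- replicate 3. On day 7 it was 1.28 ± 0.780, 2.33 without WT replicate 2 and 0.80 without WT replicate 1. Neither genotype had a called change between days, with log2 values of 1.22 ± 0.784 in WT and -0.94 ± 0.773 in Cthrc1-/- (edgeR adjusted p = 0.312 and 0.562). The WT value was 0.17 without WT day 7 replicate 2, and the Cthrc1-/- value was 0.17 without Cthrc1-/- day 0 replicate 3. The Stra6 locus overlaps Gm16131 on its own strand and Ccdc33 on the other. The libraries keep the strand, but whether counting used it is not given in the sources used here, so reads of these genes may be mixed.

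Crabp1 (ENSMUSG00000032291, chr9:54764748-54773110, plus strand), a cytosolic retinoic acid binding protein, had the highest level of the 9 genes in 3 of the 4 groups. On day 0 it was at 71.6, 54.7 and 68.9 FPKM in WT and 63.3, 57.7 and 54.5 FPKM in Cthrc1-/-. Day 7 levels were 76.6, 141 and 139.6 FPKM in WT and 66.3, 114 and 223 FPKM in Cthrc1-/-. The genotypes overlapped on both days, and in each genotype every day 7 library was above every day 0 library. Genotype differences were -0.26 ± 0.363 and 0.12 ± 0.362 on the log2 scale on days 0 and 7. The day 7 minus day 0 values of 0.66 ± 0.364 in WT and 1.04 ± 0.366 in Cthrc1-/- did not pass (edgeR adjusted p = 0.236 and 0.170). Without Cthrc1-/- day 7 replicate 3, its highest library, the Cthrc1-/- value was 0.48.

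Crabp2 (ENSMUSG00000004885, chr3:87948666-87953376, plus strand) encodes the binding protein that passes retinoic acid to RAR. It was at 44.5, 38.6 and 33.1 FPKM in WT and 73.2, 107 and 65.7 FPKM in Cthrc1-/- on day 0. The day 7 values were 64.5, 41.7 and 25.7 FPKM in WT and 59.2, 45.2 and 42.4 FPKM in Cthrc1-/-. The day 0 groups did not overlap and the mean was 2.12 times as high in Cthrc1-/-, whereas on day 7 the Cthrc1-/- values lay inside the WT range. The log2 difference was 0.98 ± 0.355 on day 0 and 0.04 ± 0.351 on day 7. In Cthrc1-/- every day 7 library was below every day 0 library, with a log2 change of -0.90 ± 0.354 that did not pass (edgeR adjusted p = 0.212). In WT the change was 0.04 ± 0.351 (edgeR adjusted p = 0.956). Cthrc1-/- on day 0 was the one group in which Crabp2 stood above Crabp1 in mean level, 81.9 ± 21.9 against 58.5 ± 4.44 FPKM (SD, n = 3).

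Dhrs9 (ENSMUSG00000027068, chr2:69380445-69404533, plus strand), a short-chain dehydrogenase that acts on retinol, was low throughout. It was at 0.271, 0.238 and 0.175 FPKM in WT and 0.278, 1.04 and 1.32 FPKM in Cthrc1-/- on day 0. At day 7 it measured 2.13, 0.618 and 0.254 FPKM in WT and 0.971, 0.649 and 0.408 FPKM in Cthrc1-/-. The highest value was in WT day 7 replicate 1, and Cthrc1-/- day 0 replicate 1 was just above the highest WT day 0 library. In a fit without the filter on low levels the log2 difference between genotypes was 1.83 on day 0 and -0.71 on day 7. In that fit the change between days was 2.04 in WT and -0.50 in Cthrc1-/- (edgeR adjusted p = 0.167 and 0.871).

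Aldh1a1 (ENSMUSG00000053279, chr19:20492715-20643465, plus strand) encodes a retinal dehydrogenase. It was at 11.8, 12.9 and 11.7 FPKM in WT on day 0, the tightest group of this gene. In Cthrc1-/- on day 0 it was at 5.36, 3.13 and 2.46 FPKM. On day 7 it was at 1.55, 5.32 and 2.73 FPKM in WT and 4.34, 3.78 and 2.15 FPKM in Cthrc1-/-. The 3 WT day 0 libraries were above all 9 others, and the remaining 3 groups overlapped one another. On day 0 the WT mean was 3.33 times the Cthrc1-/- mean, and the log2 difference was -1.82 ± 0.447. On day 7 the difference was 0.05 ± 0.434.

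In WT, Aldh1a1 fell from day 0 to day 7, with a log2 change of -2.14 ± 0.451 (edgeR adjusted p = 0.0166, every day 7 library below every day 0 library). Over the alternatives this adjusted p ran from 5.16e-05 to 0.542. It was 0.0543 without WT day 0 replicate 2 and 0.0508 without WT day 0 replicate 3. The comparison reuses the WT day 0 libraries that were in view when the genes were chosen. Its p-value is therefore not independent of that choice. In Cthrc1-/- the change was -0.26 ± 0.434 (edgeR adjusted p = 0.795). Adipocyte markers such as adiponectin (Adipoq) and perilipin (Plin1) also fell in WT, 5 of 5 tested. Their sums were 388, 549 and 512 FPKM in WT on day 0 and 26.7, 94.6 and 45.1 FPKM in WT on day 7. In Cthrc1-/- they were 255, 96.4 and 32.9 FPKM on day 0 and 84.4, 104 and 23.4 FPKM on day 7, so that WT day 0 was again above all other libraries. The part of these markers in the level of Aldh1a1 was not tested. Aldh1a7, a neighbouring copy on the opposite strand whose longest transcript matched that of Aldh1a1 at 88.8% of 2036 aligned bases, was at 7.28, 7.32 and 6.73 FPKM in WT on day 0. It was at 3.61, 2.05 and 1.06 FPKM in Cthrc1-/- on day 0, 0.378, 0.444 and 1.32 FPKM in WT on day 7 and 0.940, 1.15 and 1.19 FPKM in Cthrc1-/- on day 7. The 2 genes followed one order of groups here, and reads they share could be counted for either. Aldh1a1 also overlaps C730002L08Rik and Gm6684 on the other strand.

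Aldh1a2 (ENSMUSG00000013584, chr9:71215789-71296243, plus strand), the retinal dehydrogenase best known from the embryo, was low except in 3 libraries. It was at 0.330, 0.584 and 0.302 FPKM in WT and 0.399, 5.27 and 2.82 FPKM in Cthrc1-/- on day 0. By day 7 it stood at 3.22, 0.321 and 0.317 FPKM in WT and 0.119, 0.249 and 0.238 FPKM in Cthrc1-/-. Cthrc1-/- day 0 replicates 2 and 3 and WT day 7 replicate 1 held the high values, and the other 9 libraries were at or below 0.584 FPKM. The log2 difference was 2.68 ± 1.08 on day 0, with overlapping groups, and -2.83 ± 1.09 on day 7. Without WT day 7 replicate 1 the day 7 value was -0.67. The change between days was 1.58 ± 1.04 in WT (edgeR adjusted p = 0.324) and -3.93 ± 1.14 in Cthrc1-/- (edgeR adjusted p = 0.108). The WT value was -0.49 without WT day 7 replicate 1. Without that library the Cthrc1-/- value was -3.89 and passed (edgeR adjusted p = 0.0254, range over the alternatives 0.00215 to 0.293). The library is in neither Cthrc1-/- group. It enters that comparison through the shared estimate of spread and the TMM factors, which were estimated anew in each fit. Gm48124 overlaps the locus on the other strand.

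Aldh1a3 (ENSMUSG00000015134, chr7:66390890-66427517, minus strand) encodes the retinal dehydrogenase known from epithelia. It was at 1.84, 0.779 and 0.805 FPKM in WT and 2.45, 5.06 and 15.7 FPKM in Cthrc1-/- on day 0. Day 7 levels were 3.86, 10.2 and 4.83 FPKM in WT and 8.78, 4.25 and 12.6 FPKM in Cthrc1-/-. The WT day 0 libraries lay below all 9 others, and the remaining groups overlapped, which is the reverse of the picture of Aldh1a1. On day 0 the Cthrc1-/- mean was 6.79 times the WT mean. The log2 difference was 2.60 ± 0.689 on day 0, 1.66 without Cthrc1-/- replicate 3, and 0.37 ± 0.647 on day 7. In WT the change from day 0 to day 7 was 2.26 ± 0.680, just short of the threshold (edgeR adjusted p = 0.0533). It passed in 5 of 21 alternatives. Among them were the fits without Cthrc1-/- day 0 replicate 1 or 3 (edgeR adjusted p = 0.0331 and 0.0211). Over all 21 alternatives the adjusted p ran from 0.00371 to 0.859. In Cthrc1-/- the change was 0.03 ± 0.646 (edgeR adjusted p = 0.984).

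Cyp26b1 (ENSMUSG00000063415, chr6:84571414-84593908, minus strand), which removes retinoic acid, was at 26.8, 25.0 and 23.1 FPKM in WT and 36.0, 25.6 and 7.54 FPKM in Cthrc1-/- on day 0. The day 7 values were 10.4, 13.1 and 20.3 FPKM in WT and 11.8, 16.1 and 10.3 FPKM in Cthrc1-/-. The highest and the lowest of the 12 values were both in Cthrc1-/- on day 0, and the genotypes overlapped on both days. Genotype differences were -0.19 ± 0.467 and -0.25 ± 0.468 on the log2 scale on days 0 and 7. In WT every day 7 library was below every day 0 library. The changes of -0.98 ± 0.472 in WT and -1.05 ± 0.472 in Cthrc1-/- did not pass (edgeR adjusted p = 0.180 and 0.276). Without Cthrc1-/- day 0 replicate 3, the lowest of the 12, both passed. They were then -0.98 in WT (edgeR adjusted p = 0.0214, range over the alternatives 0.0214 to 0.744) and -1.48 in Cthrc1-/- (edgeR adjusted p = 0.0236, range over the alternatives 0.0236 to 0.562). Without Cthrc1-/- day 0 replicate 1, the highest, the Cthrc1-/- value was -0.54. Its homologues Cyp26a1 and Cyp26c1 were below 1 FPKM in mean level, so that Cyp26b1 was the one member of the retinoic acid hydroxylases above the filter.

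**Figure D2:**
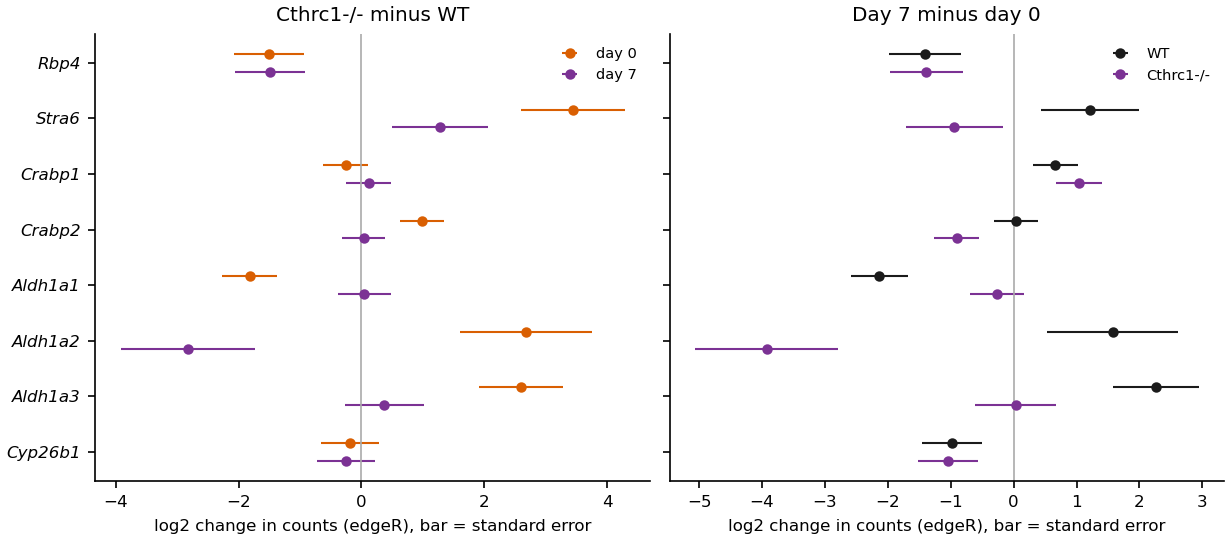
Log2 change in counts (horizontal axis) of the 8 genes above the filter, Cthrc1-/- minus WT on each day (left) and day 7 minus day 0 in each genotype (right). Points are edgeR estimates and bars are 1 SE, over 3 libraries a group. On day 0 Stra6 lies highest and Aldh1a1 lowest, and on the right Aldh1a1 in WT is the one called change. That call reuses the WT day 0 libraries in view when the genes were chosen.

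The question of the genotype comparison is how dermis without Cthrc1 differs before and after wounding. On day 0, the receptor Stra6, the binding protein Crabp2 and the dehydrogenase Aldh1a3 were higher in every Cthrc1-/- library than in any WT library, and the carrier Rbp4 and the dehydrogenase Aldh1a1 were lower. These were 5 of the 8 genes above the filter, and groups failed to overlap for 41.4% of all 14313 genes (21.5% higher and 19.8% lower). Stra6 and Aldh1a1 were called, 2 of 8, where 5.78% of all genes were called (3.51% higher and 2.26% lower). Since this contrast was in view when the genes were chosen, nothing is read from these counts, here or on day 7. The median log2 difference was 0.40 over the 8 genes and -0.05 over all genes.

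The hair follicle markers moved with genotype on day 0, 14 of 15 tested being higher in Cthrc1-/- (edgeR). Their sums did not overlap between the genotypes. Of the 15 genes, 7 were at 0 in some library. With the mean log2 level of these markers in the fit as a covariate, the day 0 difference was 0.79 for Stra6, -0.63 for Aldh1a3, 0.16 for Rbp4 and -1.003 for Aldh1a1. It was 1.42 for Crabp2, 2.10 for Aldh1a2, -0.53 for Crabp1 and 1.43 for Cyp26b1. Thus the differences of Stra6, Aldh1a1 and Aldh1a2 were smaller in that fit and those of Aldh1a3 and Rbp4 were smaller and of the other sign. Those of Crabp2, Crabp1 and, with the other sign, Cyp26b1 were larger in size. In it edgeR called 0 of 14313 genes, with 946 at an unadjusted p under 0.05. Without the covariate 827 genes were called by edgeR and 2787 by DESeq2. The marker level in that fit was -2.10, -0.33 and -0.49 in WT on day 0 and from 4.15 to 10.1 in every other library. It thus nearly separated WT day 0 from the rest, and a fit with group means can hardly tell that group from the marker level. Nothing is read from lost calls or changed signs, and the part of these markers was not tested.

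All 6 dermal fibroblast markers, all 4 macrophage markers and all 3 endothelial markers were lower in every Cthrc1-/- day 0 library than in any WT one. The same held for 19.8% of all genes. Of these markers edgeR called 1 of the 6, 0 of the 4 and 0 of the 3 lower. The fibroblast sums were 5471, 6441 and 4814 FPKM in WT and 2386, 1296 and 337 FPKM in Cthrc1-/- on day 0. Adipocyte and skeletal muscle sums were lower too, without overlap, those of skeletal muscle at 56.3 to 219.8 FPKM in Cthrc1-/- against 249 to 574 FPKM in WT, with all 5 genes lower. Neutrophil sums were higher, at 22.2 to 87.2 FPKM against 5.56 to 10.5 FPKM in WT, 2 of 4 genes being higher without overlap. Melanocyte sums were higher as well, at 29.9, 30.3 and 114 FPKM in Cthrc1-/-, above each WT library. Sums of the other 4 marker lists overlapped between the genotypes. The part of these lists in the differences of the retinoid genes was not tested.

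**Figure D3:**
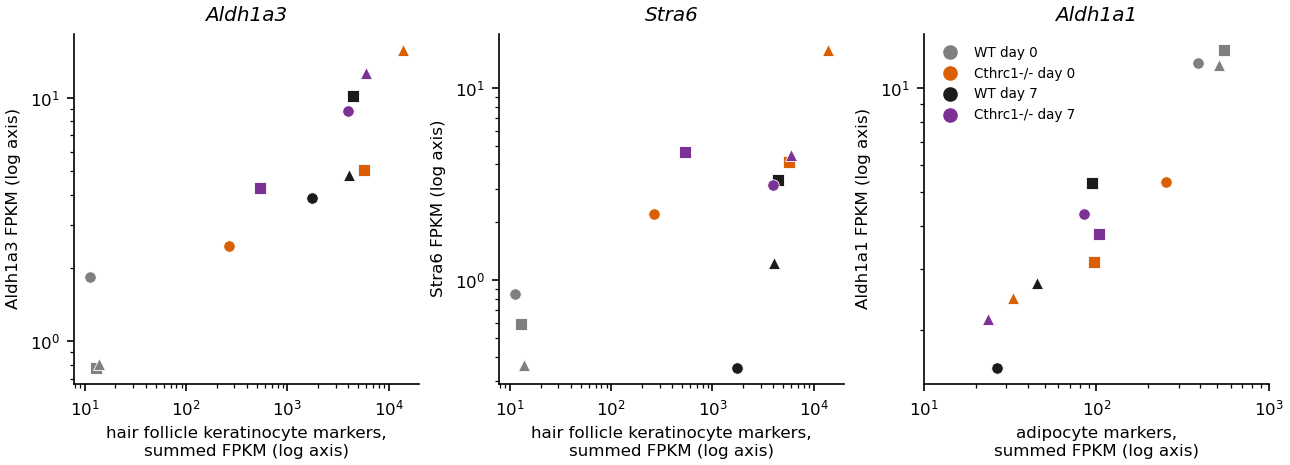
Aldh1a3 and Stra6 against the summed hair follicle keratinocyte markers, and Aldh1a1 against the summed adipocyte markers, all in FPKM on log axes. Each point is 1 of the 12 libraries, with color for the group and, as in the plot of levels by library, circles, squares and triangles for replicates 1, 2 and 3. The WT day 0 libraries are lowest for Aldh1a3 and for hair follicle markers (11.2 to 13.8 FPKM) and highest for Aldh1a1 and for adipocyte markers (388 to 549 FPKM).

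On day 7 the carrier Rbp4 and the dehydrogenase Aldh1a2 were lower in every Cthrc1-/- library than in any WT library, and the other 6 genes above the filter overlapped. Groups failed to overlap for 9.13% of all genes (6.46% higher and 2.67% lower). None of the 8 genes was called by edgeR, against 0.0210% of all genes (0.0140% higher and 0.00699% lower), and none by DESeq2, against 62 of all 14313 genes. At an unadjusted p under 0.05 in edgeR were 2 of the 8, against 782 of all 14313 genes. The 8 genes had a median log2 difference of 0.04, against -0.01 over all genes. For both genes without overlap most of the difference came with WT day 7 replicate 1, as the values without that library show above. Hair follicle marker sums overlapped between genotypes on day 7, and fibroblast sums were lower in Cthrc1-/-, at 2193 to 3447 FPKM against 3521 to 5251 FPKM in WT. Sebaceous gland sums were higher in Cthrc1-/-, at 226 to 264 FPKM against 73.2 to 215 FPKM. By gene, 2 of 6 fibroblast markers were lower and 2 of 6 sebaceous gland markers were higher without overlap. Of each list edgeR called 0.

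Between day 0 and day 7 in WT, the dehydrogenase Aldh1a1 fell, 1 of 8 genes called against 13.1% of all genes (6.04% higher and 7.10% lower). Without overlap, Crabp1 and Aldh1a3 were higher on day 7 and Rbp4, Aldh1a1 and Cyp26b1 were lower, 5 of 8 genes against 44.0% of all genes (29.8% higher and 14.1% lower). The median log2 change was 0.35 over the 8 genes and -0.00185 over all genes. This comparison shares the WT day 0 libraries with the genotype comparison on day 0, so its p-values for these genes are not independent of their choice. Its hair follicle markers rose too, 12 of 15 tested. Sums of dermal papilla, neutrophil and melanocyte markers were also higher on day 7 without overlap, and those of sebaceous gland, adipocyte and liver-type markers were lower. By gene, 4 of 8 dermal papilla markers were higher without overlap and 2 were lower. Higher too were 2 of 4 neutrophil and 4 of 4 melanocyte markers. Lower without overlap were 3 of 6 sebaceous gland, 6 of 6 adipocyte and 9 of 9 liver-type markers. With the hair follicle covariate, the WT changes were 0.14 for Rbp4, -1.12 for Stra6, -0.53 for Aldh1a3 and 0.67 for Cyp26b1, all of the other sign, and -1.28 for Aldh1a1. That covariate nearly separated WT day 0 from the other libraries, so nothing is read from these signs. Scaled to total FPKM in place of the TMM factors of edgeR, the median of all genes shifted to 0.17 between days in WT and to 0.16 in Cthrc1-/-.

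In Cthrc1-/- mice, Crabp1 was higher and Crabp2 and Aldh1a2 were lower on day 7 than on day 0 in every library, 3 of 8 genes where 26.5% of all genes did not overlap (21.5% higher and 4.99% lower). edgeR called 0 of the 8, against 1.46% of all genes (0.859% higher and 0.601% lower). At an unadjusted p under 0.05 in edgeR were 4 of the 8, against 2596 of all 14313 genes. DESeq2 called 1 of the 8, against 1409 of all 14313 genes. The median log2 change was -0.92 over the 8 genes and -0.01 over all genes. Endothelial marker sums were higher on day 7 without overlap, at 59.7 to 107 against 11.3 to 31.3 FPKM on day 0, with 3 of 3 genes higher. Macrophage sums (68.4 to 80.6 against 19.1 to 42.8 FPKM, 3 of 4 genes) and neutrophil sums (375 to 1151 against 22.2 to 87.2 FPKM, 2 of 4 genes) were higher as well. So were those of the dermal papilla (70.0 to 75.4 against 25.5 to 68.3 FPKM, 2 of 8 genes). Liver-type sums were lower, at 1.73 to 1.82 against 34.5 to 52.8 FPKM, 9 of 9 genes. Sums of the other 7 lists, hair follicle among them, overlapped between the days in this genotype. The part of the lists that moved in the values of the retinoid genes was not tested.

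The change between days can be set against genotype as an interaction, the day 7 minus day 0 change in Cthrc1-/- less that in WT. It is built from the 2 genotype differences that were in view when the genes were chosen, so it is given without a test. It was -5.50 ± 1.54 for Aldh1a2, -2.23 ± 0.928 for Aldh1a3, -2.16 ± 1.10 for Stra6 and -0.94 ± 0.498 for Crabp2. For Aldh1a1 it was 1.87 ± 0.618, the largest positive value. Rbp4 at 0.02 ± 0.818, Cyp26b1 at -0.06 ± 0.661 and Crabp1 at 0.37 ± 0.513 were within 1 SE of 0.

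In order of level, WT dermis on day 0 held Crabp1 (65.1 ± 9.09 FPKM, SD, n = 3), then Crabp2 (38.7 ± 5.69), Cyp26b1 (25.0 ± 1.85), Aldh1a1 (12.2 ± 0.687) and Rbp4 (9.15 ± 1.30). Each of these was apart from the next in every library. Aldh1a3 (1.14 ± 0.606), Stra6 (0.603 ± 0.242) and Aldh1a2 (0.405 ± 0.156) followed with overlapping ranges, and Dhrs9 was last at 0.228 ± 0.0488 FPKM. In the other groups Aldh1a3 replaced Aldh1a1 as the dehydrogenase of highest mean level. It stood at 7.75 ± 7.04 FPKM in Cthrc1-/- on day 0, 6.29 ± 3.41 FPKM in WT on day 7 and 8.54 ± 4.18 FPKM in Cthrc1-/- on day 7. The matching Aldh1a1 means were 3.65 ± 1.52, 3.20 ± 1.93 and 3.42 ± 1.13 FPKM. By group mean the 3 dehydrogenases were thus in the order Aldh1a1, Aldh1a3, Aldh1a2 in WT on day 0 and in the order Aldh1a3, Aldh1a1, Aldh1a2 in the other 3 groups. No single library of Cthrc1-/- on day 0 had that order of means. Aldh1a1 was highest in replicate 1 and Aldh1a2 in replicate 2, and Aldh1a2 was above Aldh1a1 in replicate 3. Aldh1a2 was above Aldh1a1 in WT day 7 replicate 1 as well. In Cthrc1-/- on day 0 the ranges from Cyp26b1 down to Dhrs9 overlapped from each gene to the next. In WT on day 7 the same held from Aldh1a3 down. In Cthrc1-/- on day 7 the ranges from Cyp26b1 to Aldh1a1 overlapped, and Rbp4, Dhrs9 and Aldh1a2 came apart below them.

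From the lowest to the highest of the 12 libraries, Stra6 spanned 44.8-fold and Aldh1a2 44.4-fold, while Crabp1 spanned 4.09-fold and Crabp2 4.15-fold. The others lay between, Aldh1a3 at 20.2-fold, Dhrs9 at 12.2-fold, Aldh1a1 at 8.34-fold, Rbp4 at 8.15-fold and Cyp26b1 at 4.78-fold. The cytosolic binding proteins thus had the smallest spans over the 12 libraries, and they were also the most abundant of the genes by group mean. Spread within a group is another measure, and there they were not always the tightest.

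Beyond these, 49 other genes of retinoid handling were grouped by role, and 34 of them passed the filter. On day 0, 2 of the 34 were called higher in Cthrc1-/- and 1 was called lower, against 3.51% and 2.26% of all genes. Both that were higher, Rbp2 and Lrat, belong to uptake, binding and storage. Rbp2, a cellular retinol binding protein, was at 8.16, 6.84 and 7.02 FPKM in WT and 21.0, 20.5 and 18.3 FPKM in Cthrc1-/- on day 0 (log2 1.34 ± 0.272, edgeR adjusted p = 0.0326). Lrat, which stores retinol as esters, was at 0.682, 0.766 and 0.945 FPKM in WT and 1.06, 2.71 and 4.03 FPKM in Cthrc1-/- (log2 1.56 ± 0.394, edgeR adjusted p = 0.0487). Nrip1, a corepressor of nuclear receptors, was the 1 that was lower, at 4.85, 4.39 and 4.30 FPKM in WT and 2.56, 2.86 and 1.43 FPKM in Cthrc1-/- (log2 -1.07 ± 0.262, edgeR adjusted p = 0.0454). The calls of Lrat and Nrip1 held in 2 of the 12 fits without 1 library, those without Cthrc1-/- day 0 replicate 1 and without WT day 7 replicate 1. That of Rbp2 held in 7, and it was lost without any 1 of the WT day 0 libraries or Cthrc1-/- day 0 replicates 2 and 3. With the hair follicle covariate none of the 3 calls held, Rbp2 being at 1.06 (edgeR adjusted p = 0.811) and Lrat at -0.74. Since that covariate nearly separated WT day 0 from the other libraries, nothing is read from this loss. The median log2 difference over the 34 genes was -0.26. On day 7 edgeR called 0 of the 34, where it called 0.0210% of all genes. At an unadjusted p under 0.05 in edgeR were 2 of the 34, against 782 of all 14313 genes. DESeq2 called 0 of the 34, against 62 of all 14313 genes. The median over the 34 was 0.05.

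**Figure D4:**
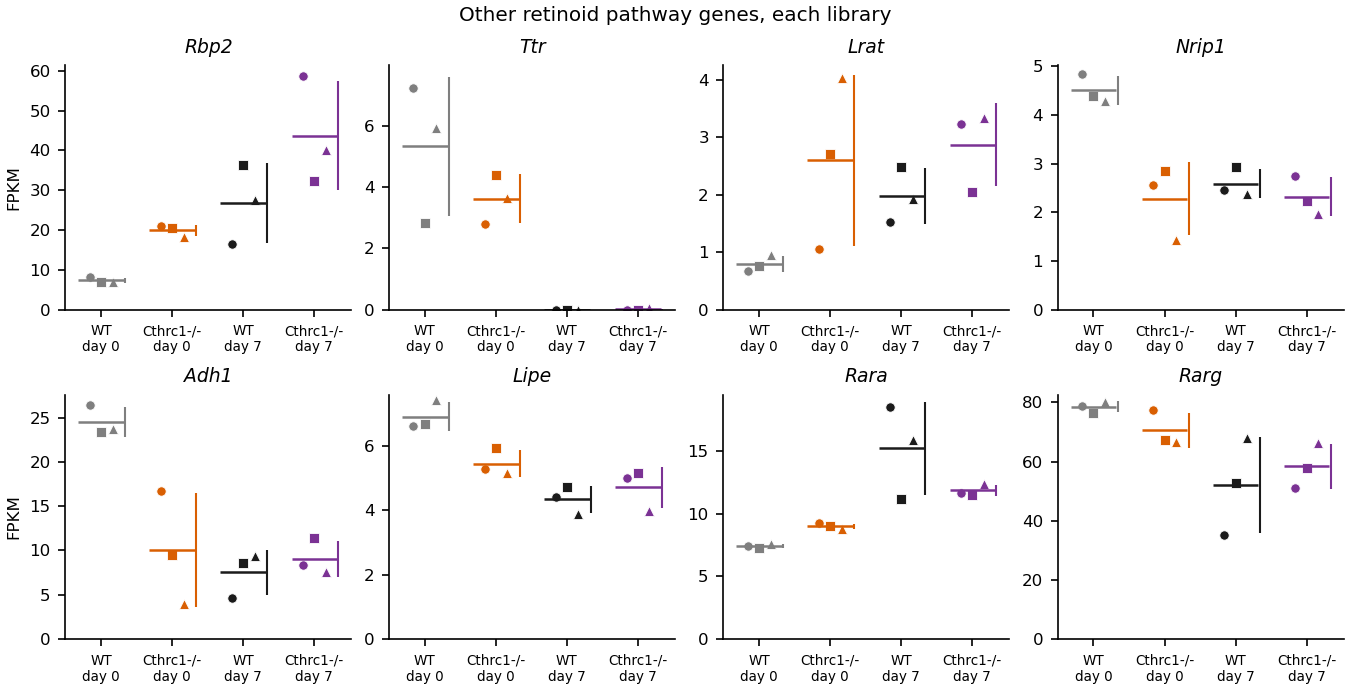
Levels in FPKM (vertical axes, linear, from 0) of 8 other retinoid genes in each library, drawn as in the plot of the 9 genes, with group means and 1 SD (n = 3). On day 0 Rbp2 is at 18.3 to 21.0 FPKM in the Cthrc1-/- libraries and at 6.84 to 8.16 FPKM in the WT libraries, while Ttr is at or near 0 in all 6 day 7 libraries.

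Between the days in WT, 3 of the 34 genes were called as rising and 5 as falling, against 6.04% and 7.10% of all genes. Rbp2 rose from 8.16, 6.84 and 7.02 FPKM to 16.4, 36.4 and 27.6 FPKM, by 1.66 ± 0.274 on the log2 scale (edgeR adjusted p = 0.00691). Rara, which encodes RAR alpha, rose from 7.46, 7.23 and 7.57 FPKM to 18.5, 11.2 and 15.9 FPKM (log2 0.87 ± 0.190, edgeR adjusted p = 0.0191). Rarg, the RAR of epidermis, moved the other way, from 78.9, 76.5 and 80.2 FPKM to 35.3, 52.9 and 67.9 FPKM (log2 -0.80 ± 0.181, edgeR adjusted p = 0.0205). Cd38, an NAD-cleaving surface enzyme that retinoic acid induces in myeloid cells, rose by 1.79 ± 0.497 (edgeR adjusted p = 0.0414), and its highest library was WT day 7 replicate 1.

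Adh1, an alcohol dehydrogenase that oxidises retinol, fell in WT from 26.5, 23.4 and 23.8 FPKM to 4.58, 8.64 and 9.36 FPKM (log2 -1.92 ± 0.459, edgeR adjusted p = 0.0255). Lipe, the hormone-sensitive lipase, which also splits retinyl esters, fell by 0.85 on the log2 scale (edgeR adjusted p = 0.0114). Nrip1 fell by 0.99 (edgeR adjusted p = 0.0356), and Ttr fell as given above. Like Aldh1a1, Adh1 was higher in each WT day 0 library than in any of the other 9. With the hair follicle covariate none of the 8 WT calls held, at edgeR adjusted p from 0.148 for Ttr to 0.901 for Adh1, whose change was -0.27 in that fit. Those of Rbp2, Lipe, Rara, Rarg, Cd38 and Nrip1 kept their sign, with edgeR adjusted p = 0.283, 0.42, 0.181, 0.406, 0.185 and 0.717. Here too the covariate nearly separated WT day 0 from the other libraries, so nothing is read from the lost calls. Left-out libraries ended the call of Adh1 in 5 of 12 fits, of Rarg in 5, of Nrip1 in 7, of Cd38 in 9 and of Rara in 3, each of the WT day 0 libraries among them. The others were WT day 7 replicates 1 and 2 for Adh1, Rarg, Nrip1 and Cd38, WT day 7 replicate 3 for Nrip1, Cthrc1-/- day 7 replicate 2 for Nrip1 and Cd38, and Cthrc1-/- day 0 replicate 2 and day 7 replicates 1 and 3 for Cd38. The median log2 change over the 34 genes was -0.17, the same with Ttr at its floor. In Cthrc1-/-, where 1.46% of all genes were called between days, only Ttr was called among the 34, being lower on day 7 (edgeR adjusted p = 0.0216). It lost that call without Cthrc1-/- day 0 replicate 2, day 7 replicate 1 or day 7 replicate 2.

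Against the 5.78% and 13.1% of all genes called in these comparisons, the counts by role were these. The retinol and retinal oxidoreductases gave 0 calls among 13 tested on day 0 between genotypes and 1, Adh1, between days in WT. On day 0, 1 of these 13 had an unadjusted p under 0.05 by edgeR, and DESeq2 called 1. Over all 14313 genes on day 0, 4068 had an unadjusted p under 0.05 by edgeR, and DESeq2 called 2787. Nuclear receptors gave 0 of 6 on day 0 by edgeR and by DESeq2, with 1 at an unadjusted p under 0.05, and 2 of 6 between days in WT. Among retinoic acid responsive genes 1 of 6 was called on day 0 and 2 of 6 between days in WT. Uptake, binding and storage gave 2 of 9 and 3 of 9. Rarb, the receptor gene best known as a retinoic acid target, was below the filter at 0.115, 0.128, 0.257 and 0.109 FPKM in mean, first WT and Cthrc1-/- on day 0, then both on day 7.

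The genes most like each of the 8 in log2(FPKM + 1) over the 12 libraries, by Pearson r, differed from gene to gene. The 12 libraries fall into groups and share depth and tissue makeup, so r describes them and carries no test. For Aldh1a1 they were Thrsp (0.991), Plin1 (0.983) and Cyp2f2 (0.983), the first 2 being genes of fat cells. For Aldh1a3 they were 2310015A10Rik (0.966), Ttyh2 (0.965) and Hist1h3i (0.961). For Rbp4, Ccn2 (0.967) and Gadd45g (0.966) were among them.

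Stra6 was most like Gm9908 (0.942), Cpt2 (0.935) and Bahd1 (0.932), and Cyp26b1 most like Tbc1d4 (0.938), Mettl24 (0.930) and Rsph9 (0.929). Crabp1 was most like Nt5m (0.904), Gfra4 (0.892) and Iglon5 (0.892). For Crabp2 they were Tmem87b (0.871), Ttc39c (0.864) and Cpeb2 (0.845). For Aldh1a2 they were Dio3 (0.933), Tuba1c (0.878) and Stbd1 (0.867), and the rank correlation with Dio3 was 0.448.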

How the data were processed

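RNA-seq of mouse dermis was analysed from a table of 55401 genes in 12 libraries, 3 in each of 4 groups taken from the sample titles. The deposited count and FPKM values were made by the authors. The submitters' processing notes name cutadapt 1.9, HISAT2 2.0.4, UMI-tools, StringTie 1.3.4d, DESeq2 and edgeR and the build GRCm38. Per the labels, poly(A) RNA was made into strand-marked libraries with molecular identifiers. In the deposited counts, genes at a count of 4 were 3.16 to 4.05 times as frequent as the mean of those at 3 and 5, so a low count is not 1 fragment, and division by 4 was an alternative. A count of 0 carries an FPKM of 0.0001 in the deposited table and was taken as 0. Per-sample columns left unused numbered 0.

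Counts were tested with edgeR 4.0.16 (quasi-likelihood, two-sided, TMM, all 12 libraries in 1 fit) in R 4.3.3 for 14313 genes with a mean of at least 1 FPKM. P-values were adjusted over all of them by Benjamini-Hochberg, and called means an adjusted p below 0.05. The SE is the absolute log2 change over the square root of F. Symbols and coordinates came from GENCODE M21 by gene ID (55141 of 55401 matched). The procedure was tested on simulated counts in which 200 of 14313 genes were changed in Cthrc1-/- on day 0. Their log2 changes were 2 or 3 in size, and each gene had the same spread in all groups. Smaller changes and the wide spread of Cthrc1-/- on day 0 were not simulated, so the rates need not hold for these libraries. False genes made up 4.1% of edgeR calls, 16.1% of DESeq2 calls and 4.8% of limma calls there. The changed genes recovered were 92.5%, 93.5% and 89%, and of those changed by 2 they were 85%, 87% and 80%. Alternatives used DESeq2 1.42.0, limma 3.58.1, RLE factors, no filter, only the groups compared, a replicate block, a hair follicle marker covariate and 1 library left out in turn. Those for the other retinoid genes were added after their calls were seen. A floor is 3 counts in each library and covers counting error only, and only if 1 count is 1 fragment.

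The 9 genes, the 5 lists of other retinoid genes and the 12 marker lists were chosen with earlier results of these data known. All 9 genes were named in every comparison, called genes of the lists were named up to 12 per comparison, and the 3 genes of highest Pearson r were named for each gene above the filter. Cthrc1 was given as the target gene. One gene of the lists, left out of their counts and medians, and one gene by Pearson r are not reported here.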

Additional observations from a re-analysis of the deposited data

How the results depend on the processing

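Between genotypes on day 0, edgeR called 827 genes, 2 of the 8 retinoid genes among them. The retinoid counts between genotypes and for the interaction are descriptions, since the genes were chosen with these contrasts in view. DESeq2 called 2787 and 5, no filter on low values 275 and 0, only the groups compared 19 and 0, the hair follicle covariate 0 and 0 (edgeR, 946 genes at an unadjusted p under 0.05), and limma on log2(FPKM + 1) called 1 retinoid gene. Leaving out 1 library gave 18 to 2146 genes and 0 to 6 retinoid genes. On day 7 (3 genes, 0 retinoid genes), DESeq2 called 62 and limma 8 genes, and leaving out 1 library gave 0 to 4. Between days in WT (1880 and 1), DESeq2 called 3551 and 2, the hair follicle covariate 8 and 0, only the groups compared 3 retinoid genes, and leaving out 1 library gave 527 to 3005 and 0 to 3. In Cthrc1-/- (209 and 0), DESeq2 called 1409 and 1, limma 775, only the groups compared 89, the covariate 376, and leaving out 1 library gave 5 to 911 and 0 to 1. For the interaction (2 and 0), DESeq2 called 681 and 1, limma 4, no filter 1, the covariate 0 (edgeR, 922 genes at an unadjusted p under 0.05), and leaving out 1 library gave 0 to 242 genes.

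Signs changed with the hair follicle covariate for Rbp4 (0.14), Stra6 (-1.12), Aldh1a3 (-0.53) and Cyp26b1 (0.67) between days in WT. They changed for Lrat on day 0 (-0.74) and for the interactions of Rbp4 (-1.56), Stra6 (0.87) and Aldh1a3 (1.07). The interaction of Rbp4 was -0.023 with DESeq2 and -0.022 with RLE factors, and that of Cyp26b1 was 0.19 and 0.21 with limma at pseudocounts of 1 and 0.1. Leaving out 1 library gave ranges across 0 between genotypes for Cyp26b1 on day 0 (-0.69 to 0.25) and, on day 7, for Crabp1 (-0.44 to 0.44), Crabp2 (-0.27 to 0.51), Aldh1a1 (-0.26 to 0.61) and Aldh1a3 (-0.0024 to 0.88). It gave such ranges for Crabp2 (-0.34 to 0.34) and Aldh1a2 (-0.49 to 2.06) between days in WT and for Stra6 (-1.36 to 0.17), Aldh1a1 (-0.52 to 0.16) and Aldh1a3 (-0.38 to 0.98) in Cthrc1-/-. It also did so for the interactions of Rbp4 (-0.32 to 0.94), Crabp1 (-0.18 to 0.70) and Cyp26b1 (-0.50 to 0.44). The causes were not tested, and the hair follicle covariate nearly separated WT day 0 from the other libraries.

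Replicate numbers recur in all groups, but the deviations of same-numbered libraries correlated over 0.1 in 2 of 12 pairs (range -0.23 to 0.43), so the numbers were not taken to pair them. With the replicate block, 883, 2, 1467 and 291 genes were called in the 4 comparisons and 1 for the interaction, 1 retinoid gene was called on day 0, and Crabp2 between days in WT was -0.052.

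With 3 libraries a group, and with wide spread in Cthrc1-/- on day 0, differences of Aldh1a2, Stra6 and Dhrs9 had SEs from 0.731 to 1.14 on the log2 scale.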
